A study of Caenorhabditis elegans with 58 samples.

Results

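The comparison described here sets young adult Caenorhabditis elegans that lack EBAX-1 against wild type, in 4 libraries of each. These are 8 of the 58 small RNA libraries of the series. The members are all 276 microRNA (miRNA) arms counted, which belong to 138 hairpins. The wild type was strain N2. The ebax-1(null) animals were strain CZ9907, which carries ebax-1(tm2321) on chromosome IV. Each genotype is a single strain, so anything else that separates CZ9907 from N2 cannot be told apart from the allele. A second pair of strains with the same difference was used to set values beside these: the double AEDH strain MCJ275, with alg-2(cdb155) and alg-1(cdb153), and MCJ354, which holds these 2 alleles together with the ebax-1 null. All were whole hermaphrodites, hatched overnight as L1 larvae and then grown for 44 h at 25 °C. Nothing in the labels says that replicates were separate cultures. The edgeR and limma p-values below come from fits of all 24 young adult libraries of experiment 2, in 6 groups. Their spread, technical or not, is thus pooled over these groups and is not that of the 8 libraries alone. The groups of these fits not described here carried Y47(mir-243bs_del), with or without both AEDH alleles, in 4 libraries each. Small RNA libraries do not measure the ebax-1 transcript, so the loss of the gene was not checked here.

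A miRNA is cut from a hairpin precursor as a duplex of 2 arms, named 5p and 3p for their place on the hairpin. One arm, the guide, is usually kept in an Argonaute protein and directs it to messenger RNAs, while the other, the star arm, is mostly degraded. EBAX-1 is the worm relative of mammalian ZSWIM8, the substrate receptor of a Cullin-RING ubiquitin ligase. ZSWIM8 acts in target-directed miRNA degradation, in which extensive pairing of a miRNA with a target leads to loss of the Argonaute and decay of the miRNA it holds. In worms, EBAX-1 is known for the clearance of the mir-35 family at the end of embryogenesis. Decay of a loaded miRNA would act on 1 arm, whereas a change in transcription or precursor processing acts before the arms part. The question that both arms can address is therefore whether they moved together or apart. Either pattern does not by itself name the step that changed, and the cause was not tested. In the arm names below an asterisk is the star mark of the deposited annotation.

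A small set of arms stood far above wild type in the ebax-1 null while most miRNAs stayed near their wild-type level. Of the 276 arms, 226 were abundant enough to be tested, 131 guides and 95 stars, and 211 of these (93.4%) lay within 2-fold of wild type. With edgeR's quasi-likelihood test and a Benjamini-Hochberg adjusted p under 0.05 (called, from here on), 49 arms differed, 21.7% of those tested. Of these, 23 were higher (10.2%) and 26 lower (11.5%). The sizes were unequal: 12 of the higher arms passed 2-fold and 6 passed 4-fold, whereas 2 of the lower arms passed 2-fold. The 4 null libraries all lay above the 4 wild-type libraries in 22 arms (9.73%) and all below in 28 (12.4%). Among the called arms, 17 higher and 21 lower ones were separated in this way. The 50 untested arms include 13 with no count in any of the 8 libraries, and none of the 50 exceeded a mean of 0.645 CPM, the usual library-scaled count, taken over all counts on miRNA arms with TMM scaling.

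The depth was even, with 8923831 to 13002028 counts on miRNA arms per library, so that 3 counts correspond to 0.242 to 0.307 CPM. These floors and the fold changes cover counting and replicate error only, and the labels name no molecular identifiers. CPM is relative to all other miRNAs of a library, and the spike-ins added to each library show that the choice of scale matters. Arm counts per spike-in count were 7.27, 7.95, 9.23 and 10.4 in wild type and 16.7, 15.5, 9.38 and 15.6 in the null. Their means were 8.71 ± 1.39 and 14.3 ± 3.33 (SD, n = 4), with a two-sided exact permutation p of 0.0571 where the smallest possible is 0.0286. With spike-in totals as the scale the median log2 fold change over all tested arms moved from -0.01 to 0.75. On that scale 107 arms were higher and 0 lower. All 23 higher calls were kept, while 11 of the 26 lower calls were lost and 15 changed sign. Below, higher and lower therefore mean relative to the bulk of miRNAs. The ratio of the 2 arms of a hairpin does not depend on this scale.

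The null libraries also differed among themselves in embryonic miRNAs. The guides of mir-35 to mir-41, which mark embryos and oocytes, summed to between 57111 and 73656 CPM in the 4 wild-type libraries. In the null they summed to 33287 and 29798 CPM in replicates 1 and 2, below all wild types, and to 109370 and 96624 CPM in replicates 3 and 4, above all wild types. Their star arms showed the same split, with 539, 454, 2245 and 1969 CPM against 1015 to 1502 CPM in wild type. The part that this split plays in the other results was not tested beyond leaving libraries out and a fit with the summed star arms as a covariate, which called 53 arms. Without null replicates 1 and 2, 22 arms were called, 19 higher and 3 lower. Without replicates 3 and 4, 60 were called, 26 higher and 34 lower. The count also depended on single libraries, falling to 28 without null replicate 2 and to 32 without wild-type replicate 1. With only the 8 libraries of the comparison in the fit, 37 arms were called, 20 higher and 17 lower. Of the 49 calls, 12 held under each of 18 other settings, and all 12 were higher: mir-788_5p*, mir-42_3p, mir-247_3p, mir-230_3p, mir-43_3p, mir-797_5p*, mir-253_3p, mir-34_5p*, mir-244_5p, mir-239a_3p*, mir-83_5p* and mir-52_3p*. Markers of other cells showed no call for mir-1_3p of muscle (log2 fold change -0.17), mir-124_3p of sensory neurons (0.26) or mir-228_5p of glia (0.20). lsy-6_3p of the ASEL taste neuron was called lower, by 0.68 on the log2 scale. That call was kept in 2 of the 8 fits with 1 library left out and in 9 of 18 other settings, and its sign turned with spike-in totals (0.0991). In whole animals, fewer cells of a type and less miRNA per cell cannot be told apart.

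The arm with the largest change was mir-788_5p*, which the annotation marks as a star. It measured 30.4, 29.2, 30.6 and 28.3 CPM in wild type and 622, 559, 458 and 501 CPM in the null. The groups were far apart, with little spread within either. The rise was 18.1-fold (log2 fold change 4.17 ± 0.21 SE, adjusted p = 6.24e-14 by edgeR). Its partner mir-788_3p, the marked guide, did not rise, at 141, 94.2, 139 and 124 CPM in wild type and 83.2, 81.7, 108 and 87.6 CPM in the null. Null replicates 1, 2 and 4 of this partner lay below all wild types and replicate 3 among them, and its log2 fold change of -0.47 (95% interval -0.88 to -0.05) did not pass the adjusted threshold. As a result the arm that dominated the hairpin changed. The 5p arm held 19.5% ± 2.80 of the hairpin's counts in wild type and 85.4% ± 3.25 in the null (SD, n = 4). The hairpin lies on chromosome X at 8485301 to 8485362 on the minus strand (ce11), outside protein-coding genes, and the annotation lists 2 positions for it.

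mir-42_3p is a member of the mir-35 family, whose miRNAs are essential in the embryo. It measured 129.7, 157, 79.98 and 149 CPM in wild type and 1998, 2009, 1070.0 and 1649 CPM in the null. Even the lowest null library was several times the highest wild type. The rise was 13.0-fold (log2 fold change 3.71 ± 0.24 SE, adjusted p = 1.20e-11 by edgeR). Its star arm mir-42_5p* did not follow, at 39.6, 39.9, 35.2 and 40.9 CPM in wild type and 34.0, 33.8, 78.9 and 58.4 CPM in the null. These star values were below wild type in null replicates 1 and 2 and above it in replicates 3 and 4, in the order of the embryonic miRNAs. Counts of mir-42 guide per star were 3.28, 3.95, 2.27 and 3.64 in wild type and 58.7, 59.4, 13.6 and 28.2 in the null.

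mir-230_3p rose without its partner in the same manner. It measured 863, 660.2, 785 and 799 CPM in wild type and 3438, 3254, 3108 and 2385 CPM in the null. The groups did not overlap, and the rise was 3.92-fold (log2 fold change 1.97 ± 0.17 SE, adjusted p = 2.88e-09 by edgeR). mir-230_5p measured 85.2, 75.5, 86.5 and 83.4 CPM in wild type against 80.4, 78.8, 61.8 and 57.6 CPM in the null, a log2 fold change of -0.25 (95% interval -0.52 to 0.02) that was not called. The annotation marks neither arm of mir-230 as a star, and mir-230_5p was taken as one because it was the rarer arm in wild type. Guide counts per star count rose from between 8.75 and 10.1 to between 41.3 and 50.3. The hairpin lies on chromosome X at 5803908 to 5803974 on the plus strand, outside protein-coding genes.

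mir-253 had arms called in opposite directions, although the call of its star arm was not stable. mir-253_3p measured 317, 244, 372 and 269 CPM in wild type and 569, 435, 3261 and 2030.3 CPM in the null. All null libraries were above wild type, but replicates 3 and 4, the libraries rich in embryonic miRNAs, were several times higher than replicates 1 and 2. The log2 fold change was 2.39 ± 0.44 SE (adjusted p = 0.000452 by edgeR). It was 1.80 without null replicate 3, and 0.80 without replicates 3 and 4 together. mir-253_5p* fell from 12.4 ± 2.42 to 6.66 ± 3.03 CPM (SD, n = 4), a log2 fold change of -0.89 (adjusted p = 0.037 by edgeR), with overlapping groups. This call was kept in 2 of the 8 fits with 1 library left out and in 8 of 18 other settings in all. It was lost, among others, with DESeq2 size factors, with spike-in totals and with only the 8 libraries of the comparison (adjusted p with 1 library left out up to 0.235 by edgeR). Guide counts per star count were 27.7, 26.1, 25.2 and 19.4 in wild type and 89.5, 109, 297 and 380 in the null. The ratio was thus raised in all 4 null libraries, although by different amounts. The hairpin lies in an intron of F44E7.5, on the same strand, on chromosome V at 5780532 to 5780596.

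**Figure D1:**
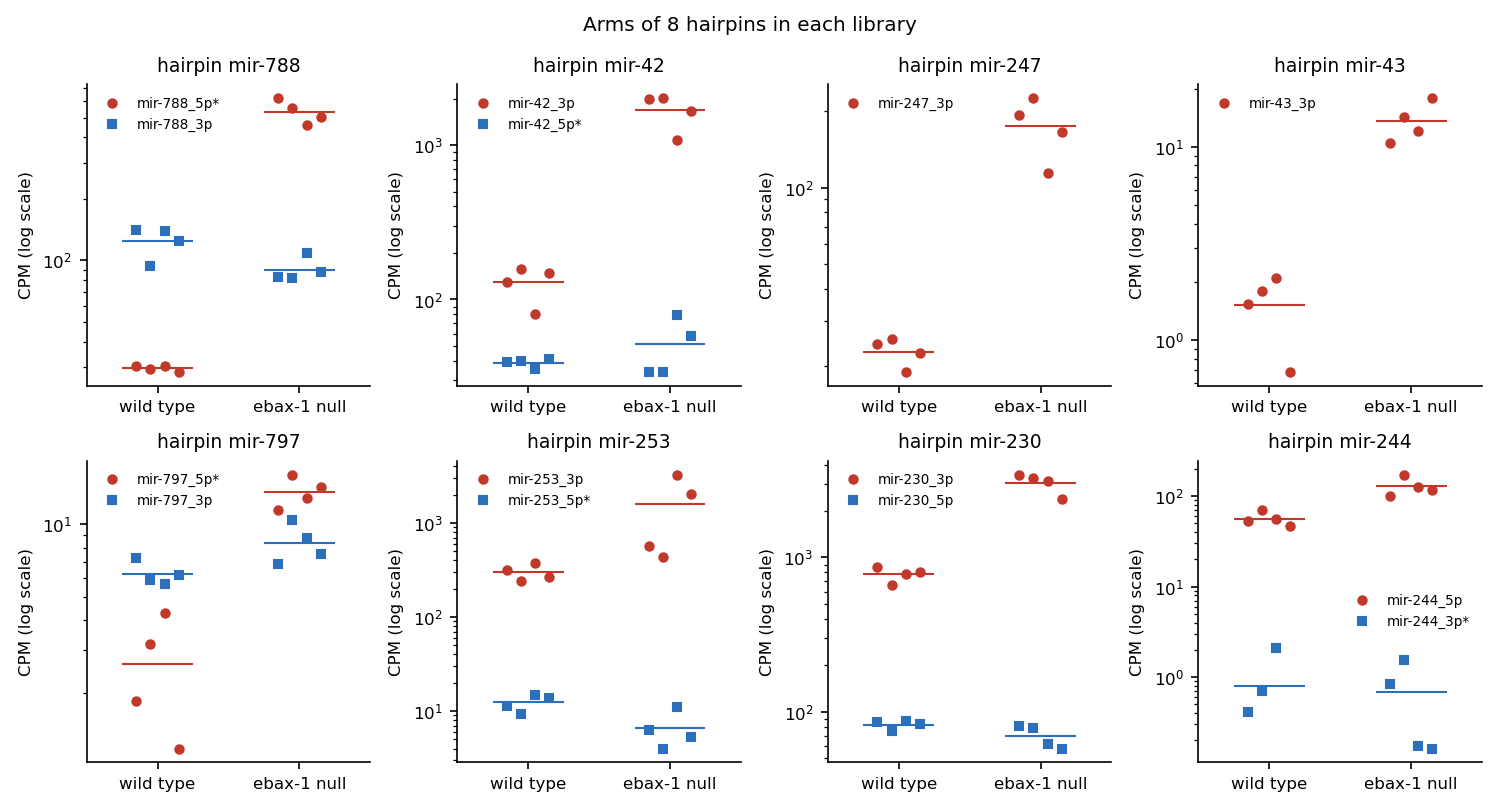
CPM (log axis) of the arms of 8 hairpins in each wild-type and ebax-1 null library; points are libraries, horizontal bars are group means of 4, and a value of 0 (mir-244_3p* in wild-type replicate 4) is not drawn. The arm in red was higher in all 4 null libraries in each panel, while of the partners drawn in blue only mir-253_5p* was called, and it was lower. The star arms of mir-247 (not tested) and mir-43 (log2 fold change 1.7, not called) are not drawn.

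Beside these, mir-247_3p, mir-43_3p and mir-797_5p* formed a group of rarer arms with large rises. mir-247_3p measured 24.3, 25.5, 18.9 and 22.5 CPM in wild type and 192, 224, 114 and 165 CPM in the null (log2 fold change 2.93 ± 0.22 SE, adjusted p = 1.02e-10 by edgeR). Its star arm was near the detection floor and was not tested. mir-43_3p measured 1.53, 1.79, 2.10 and 0.682 CPM in wild type and 10.5, 14.3, 12.03 and 17.8 CPM in the null (log2 fold change 3.14 ± 0.44 SE, adjusted p = 1.19e-05 by edgeR). Its star arm mir-43_5p* had a log2 fold change of 1.7 without a call. The arm ratio of mir-43 was not tested, so its arms were not shown to part. mir-797_5p* measured 1.84, 3.19, 4.27 and 1.17 CPM in wild type and 11.5, 16.1, 12.8 and 14.3 CPM in the null (log2 fold change 2.37 ± 0.35 SE, adjusted p = 2.14e-05 by edgeR). In mir-247_3p, mir-43_3p and mir-797_5p* the groups were separate. The 3p arm of mir-797, marked as its guide, went from 6.23 ± 0.715 to 8.38 ± 1.56 CPM (SD, n = 4) and was not called. The share of the mir-797 hairpin held by the 5p arm went from 28.6% ± 12.7 to 62.1% ± 2.69 (SD, n = 4).

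mir-34, whose family is linked to stress responses in worms and to p53 in mammals, gained on its 5p side. mir-34_5p* is the abundant arm, with 92.1% ± 2.98 of the hairpin's counts in wild type (SD, n = 4), although the annotation marks it as the star. It measured 234, 327, 157 and 264 CPM in wild type and 635, 734, 449 and 793 CPM in the null. The groups did not overlap, and the log2 fold change was 1.41 ± 0.28 SE (adjusted p = 0.000869 by edgeR). mir-34_3p stayed at 19.5 ± 3.00 and 19.6 ± 4.21 CPM (SD, n = 4), with a log2 fold change of 0.00 (95% interval -0.47 to 0.48). mir-239a_3p*, which likewise is marked as a star but held 84.4% ± 3.32 of its hairpin, rose by 0.94 on the log2 scale, from 88.3 ± 11.1 to 169 ± 36.7 CPM. Its partner mir-239a_5p had 0.61 and was not called, so the 2 arms were not shown to part.

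Of the remaining higher arms, mir-244_5p measured 53.3, 69.1, 55.3 and 46.7 CPM in wild type and 100.02, 171, 127 and 115 CPM in the null, without overlap (log2 fold change 1.19, adjusted p = 0.000452 by edgeR). Its star arm averaged 0.801 CPM in wild type and 0.684 CPM in the null, and the hairpin's ratio (change 0.97, 95% interval -1.05 to 3.00) had a wide interval. Star arms that rose without a call of the guide were mir-83_5p* (0.83), mir-67_5p* (0.80), mir-56_5p* (0.63), mir-52_3p* (1.33) and let-7_3p* (1.07), all as log2 fold changes. With 1 library left out, the call of mir-67_5p* was kept in 2 of 8 fits and that of mir-56_5p* in 4. mir-56_5p* and mir-52_3p* were rare, each with a mean under 10 CPM. mir-52_3p* held 0.0213% ± 0.0102 of its hairpin's counts in wild type and 0.0466% ± 0.00842 in the null (SD, n = 4). The arm ratios of mir-83, mir-56, let-7 and mir-67 were not called (adjusted p 0.0667, 0.0677, 0.111 and 0.716 by limma). Their arms were thus not shown to part. let-7_3p* measured 6.44, 6.78, 10.9 and 8.08 CPM in wild type and 22.3, 23.9, 9.57 and 11.9 CPM in the null. It was clearly raised in null replicates 1 and 2 only, and the call was lost when either was left out (adjusted p up to 0.056 by edgeR). The guide let-7_5p, which promotes the transition from larva to adult, stayed at 0.20 on the log2 scale. The other called arms were the guides mir-233_3p (0.74), mir-231_3p (0.62), mir-235_3p (0.49) and mir-239b_5p (1.38), together with mir-44_3p, mir-45_3p and both arms of lin-4. mir-239b_5p had a mean under 10 CPM. Its call was kept in 3 of the 8 fits with 1 library left out, with log2 fold changes from 1.08 to 2.07. It was also lost with only the 8 libraries of the comparison (adjusted p = 0.103 by edgeR). Of these other called arms, mir-235_3p, mir-44_3p and mir-45_3p kept their call with each single library left out. They lost it when null replicates 1 and 2 were left out together.

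The lower arms had smaller changes, and none of them was called lower on the spike-in scale, where lsy-6_3p, mir-77_3p, mir-82_3p, both arms of mir-63 and mir-1829a and 8 others had values above 0. Without null replicates 1 and 2, the lower calls that held were mir-2210_3p, mir-1829b_3p* and mir-1829c_3p*. The largest decrease was mir-2210_3p, at 65.5, 43.4, 65.8 and 58.9 CPM in wild type and 32.6, 25.9, 18.5 and 13.0 CPM in the null, without overlap (log2 fold change -1.38 ± 0.26 SE, adjusted p = 0.000452 by edgeR). Its hairpin overlaps an exon of ZK593.2 on the same strand, so that reads from that transcript cannot be told apart from the miRNA. All 6 arms of mir-1829a, mir-1829b and mir-1829c were lower, with log2 fold changes between -0.92 and -0.71. mir-1829b_3p* and mir-1829c_3p* had nearly the same values in every library, and counting may have split reads between them. mir-70_3p was the most abundant of the larger decreases, at 47516, 30003, 53076 and 33793 CPM in wild type and 23072, 24669, 26353 and 18474 CPM in the null (log2 fold change -0.83 ± 0.20 SE, adjusted p = 0.00402 by edgeR). The others of more than 0.6 on the log2 scale were mir-795_3p* (-1.03), mir-795_5p (-0.73), mir-253_5p* (-0.89), mir-1830_3p (-0.89), mir-790_5p (-0.83), mir-61_5p* (-0.83), lsy-6_3p (-0.68), mir-1822_3p (-0.64), mir-77_3p (-0.63), mir-63_5p* (-0.63) and mir-1817_5p (-0.61). Smaller decreases were called for mir-254_3p, mir-785_3p, mir-250_5p*, mir-60_3p, mir-82_3p, mir-229_3p* and mir-63_3p (-0.55 to -0.34). With each single library left out, 9 of the 26 lower calls and 15 of the 23 higher calls were kept.

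The change in the ratio of the 2 arms was tested for 92 hairpins with a mean of at least 10 counts in each arm. With limma, 10 hairpins passed the adjusted threshold (10.9%), 6 toward the guide (6.52%) and 4 toward the star (4.35%). Toward the guide they were mir-42 (3.402 on the log2 scale, adjusted p = 3.26e-08), mir-253 (2.90, 2.05e-06), mir-230 (2.22, 1.72e-10), mir-38 (1.44, 0.0232), mir-233 (0.78, 0.0232) and mir-61 (0.58, 0.0101). Toward the star they were mir-788 (-4.62, 6.80e-14), mir-797 (-2.10, 0.000838), mir-34 (-1.44, 0.000838) and mir-52 (-1.27, 0.0152). In all 10 the null and wild-type libraries were separate, out of 8 hairpins above (8.7%) and 8 below (8.7%). The calls of mir-42, mir-253, mir-230, mir-788, mir-797 and mir-34 held under each of 17 other settings. Those of mir-233, mir-61 and mir-52 were lost when the fit held only the 8 libraries of the comparison (adjusted p 0.0797, 0.0580 and 0.0799). These and that of mir-38 were also lost without certain single libraries. For mir-38 these were wild-type replicates 1 and 4 and null replicate 2 (adjusted p 0.0518, 0.124 and 0.0864). For mir-233 they were wild-type replicates 3 and 4 and null replicates 2 and 4 (0.0635, 0.1002, 0.0860 and 0.0685). For mir-61 it was wild-type replicate 2 (0.0534), and for mir-52 wild-type replicate 3 (0.0853), all by limma.

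Most hairpins with a ratio call had 1 moving arm and a partner that was not called. In mir-788, mir-797, mir-34 and mir-52 the star was called higher alone. In mir-42, mir-230 and mir-233 the guide was called higher alone. In mir-61 the star was lower and the guide mir-61_3p was at -0.28 on the log2 scale without a call. mir-38 had no called arm, and mir-38_3p varied widely among the null libraries, at 66.9, 72.7, 272 and 245 CPM against 60.1 to 108 CPM in wild type. Its guide counts per star count were higher in all 4, at 31.1, 46.7, 33.3 and 28.0 against 12.5, 15.8, 18.2 and 6.88 in wild type.

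Both arms were called in the same direction in 6 hairpins, and none of these had a ratio call. lin-4, the founding miRNA of developmental timing, was higher on both sides, with log2 fold changes of 0.70 for lin-4_5p (2717 ± 739 to 4412 ± 1262 CPM, SD, n = 4) and 0.97 for lin-4_3p*, and overlapping groups in each. The call of lin-4_5p was kept in 3 of the 8 fits with 1 library left out and that of lin-4_3p* in 2. mir-795, mir-63, mir-1829a, mir-1829b and mir-1829c were lower on both sides. All 6 arms of the mir-1829 hairpins kept their call in the 8 fits with 1 library left out, mir-795_3p* in 6 and mir-795_5p in 5, and each arm of mir-63 in 3. None of these lower calls held with spike-in totals, where both arms of mir-63 and of mir-1829a and mir-795_5p were above 0. A further 58 of the 92 hairpins had no call in either arm or the ratio. A missing call does not show that the arms of these moved equally.

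**Figure D2:**
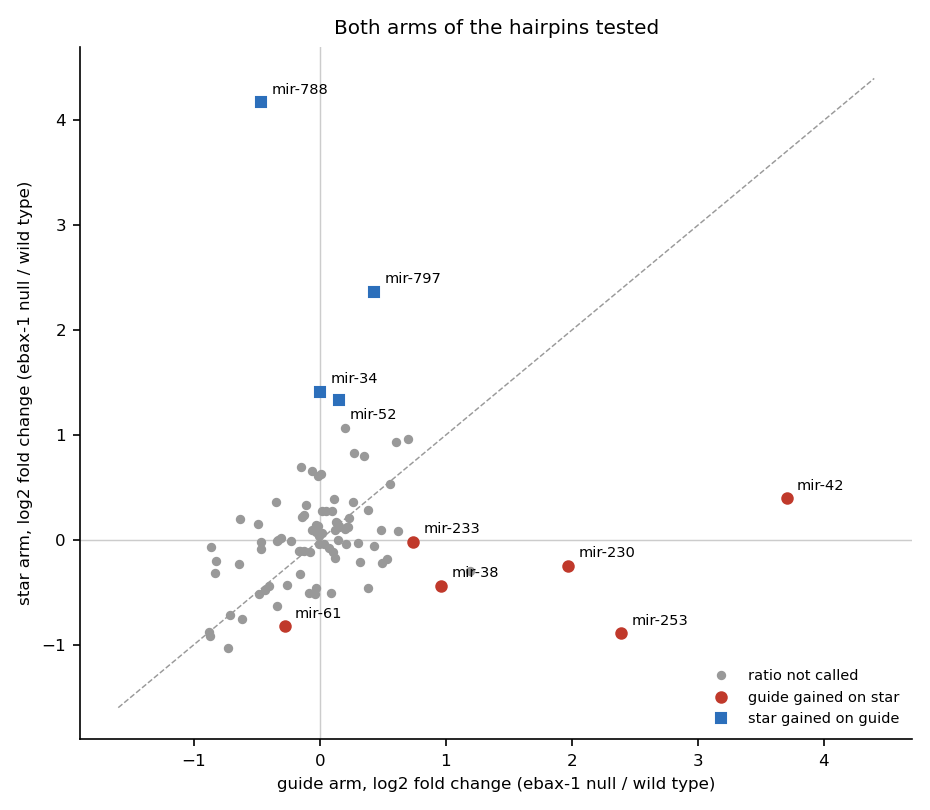
Log2 fold change of the star arm (vertical) against that of the guide arm (horizontal), ebax-1 null over wild type, for 92 hairpins; the dashed line marks equal change of both arms. The 6 red points and 4 blue squares are hairpins whose arm ratio passed the threshold, and mir-788, mir-42 and mir-230 lie near 1 axis, so that 1 arm moved far more than the other, while mir-253 has its guide at 2.39 and its star at -0.89.

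Family members did not move alike. Of the 8 guides of the mir-35 family, mir-42_3p alone was called, and the median log2 fold change of the family was 0.12 against -0.01 over all tested arms. The 7 guides of mir-35 to mir-41 lay between 0.03 and 0.96, with wide intervals. Their levels were split among the null libraries as described above, and the part of this split in the width was not tested. 7 of the 8 family hairpins had a ratio above 0, but 2 were called, mir-42 and mir-38, and mir-35 itself had -0.02. In the mir-44 family, 3 of 4 were higher, against 10.2% of all tested arms: mir-247_3p, mir-44_3p (26987 ± 2881 to 39694 ± 4894 CPM, SD, n = 4, log2 fold change 0.56) and mir-45_3p (0.54). mir-44_3p and mir-45_3p had nearly the same counts in every library and may share reads. In the mir-2 family, mir-43_3p and mir-797_5p* were called higher while mir-2_3p (0.22) and mir-250_3p (-0.04) were not.

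The let-7 family, which times larval development, held 1 lower call, mir-795_5p, and no higher call among 6 guides (median -0.10). No guide of the mir-51 family was called among 6 (median 0.01). Of the mir-58 family, related to bantam of flies, 5 of 7 guides were tested and mir-82_3p was lower (median -0.31). Among the 5 guides of mir-63, mir-64, mir-65, mir-66 and mir-229, only mir-63_3p was called, and it was lower (median of the 5 -0.03). mir-243_3p, known for slicing the transcript of Y47H10A.5, measured 509.6, 286, 579 and 335 CPM in wild type and 274, 287, 485 and 308 CPM in the null. Its groups overlapped and it was not called (log2 fold change -0.34, 95% interval -0.92 to 0.25).

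**Figure D3:**
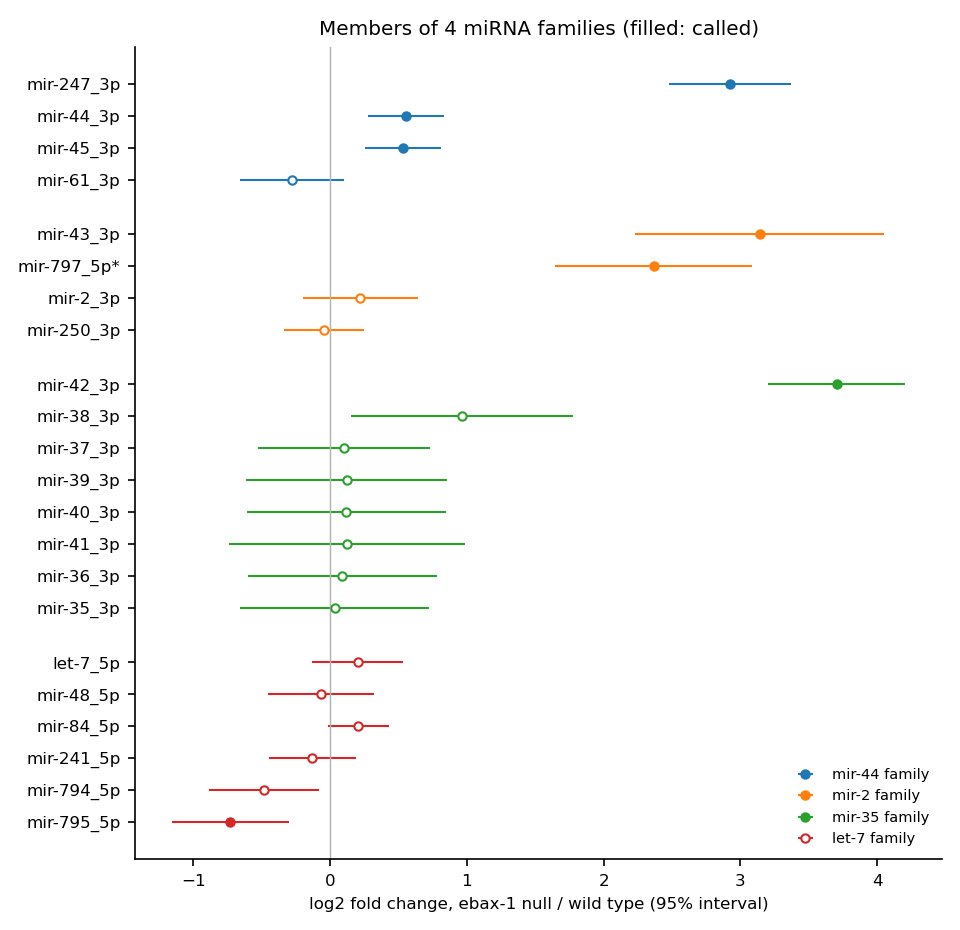
Log2 fold change (horizontal, with 95% interval) of the guides of 4 families and of mir-797_5p*, ebax-1 null over wild type; filled points were called. Within the mir-35 family mir-42_3p stands at 3.71 while mir-35_3p is at 0.03, and within the mir-44 family mir-247_3p stands at 2.93 while mir-61_3p is at -0.28.

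**Figure D4:**
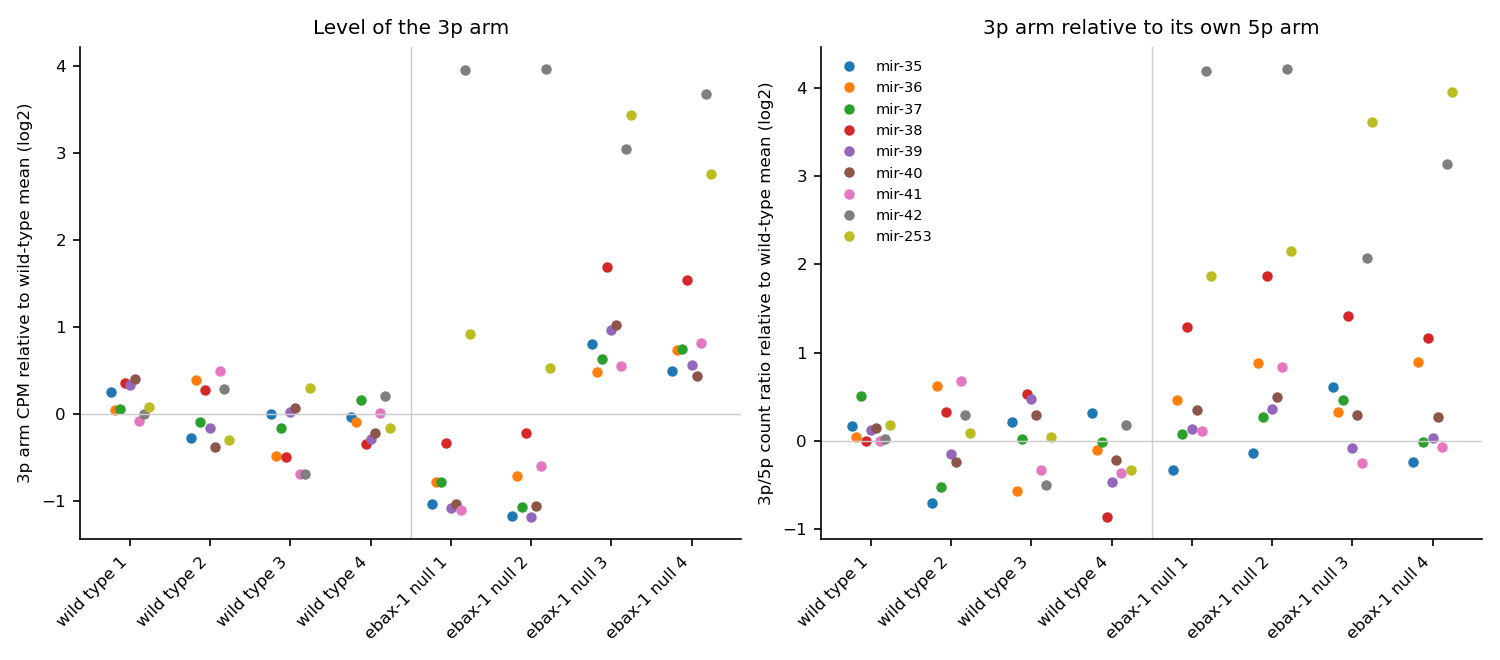
Values per library for the mir-35 family and mir-253, relative to the mean of the 4 wild-type libraries on the log2 scale: the level of the 3p arm (left) and its ratio to the 5p arm of the same hairpin (right). At left mir-35 to mir-41 are below the wild-type mean in ebax-1 null libraries 1 and 2 and above it in 3 and 4. At right mir-42, mir-253, mir-38, mir-36 and mir-40 are above the wild-type mean in all 4, and the ratios of mir-36 and mir-40 were not called.

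Of 16 groups of hairpins within 5 kb of each other on the same strand, 7 held a called arm. These 7 groups hold 3 to 8 tested arms each, and 21.7% of all tested arms were called, so holding a call says nothing particular about a group. In 2 of them the large rises sat side by side. mir-42, mir-43 and mir-44 lie on chromosome II at 11889823 to 11890103 on the plus strand, and all 3 guides were higher, at 3.71, 3.14 and 0.56 on the log2 scale. Their star arms were at 0.40, 1.70 and 0.53 and were not called. The value of mir-43_5p* rests on a mean of 0.303 CPM in wild type. As said above, mir-44_3p may share reads with mir-45_3p, whose hairpin lies outside this group on the minus strand. The rise of mir-44_3p can therefore not be assigned to this group with certainty. mir-247 and mir-797 lie on chromosome X at 4756991 to 4757186 on the plus strand. There mir-247_3p and mir-797_5p* were higher while mir-797_3p (0.43) was not called. On chromosome V at 11769936 to 11770132 on the minus strand, mir-250 and mir-61 had both star arms lower (-0.52 and -0.83), and their guides had -0.04 and -0.28 without a call. On chromosome I at 12594583 to 12595762, mir-795 had both arms lower and those of its neighbour mir-794 were at -0.48 and -0.52 without a call. In the other 3 groups a single arm was called.

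The same loss of ebax-1 was measured a second time in the double AEDH background, with no library in common with the comparison above. AEDH names a change in the slicing residues of the Argonautes ALG-1 and ALG-2. In that background 36 arms were called (15.9%), 16 higher and 20 lower. Of the calls, 26 were shared in the same direction, which is 53.1% of those in the wild-type background and 72.2% of those in double AEDH. Of the 49 arms called in the wild-type background, 45 had the same sign in double AEDH, against 73.9% of all tested arms. Across the 226 arms Pearson's r between both log2 fold changes was 0.808 and Spearman's rho 0.673, and r was 0.601 without the 7 arms above 1.5. Arms share libraries and are no independent replicates, so these values describe the data. Leaving out a library lowered the 36 calls to between 19 and 29, and to 22 or fewer without double AEDH replicate 1, 3 or 4 or replicate 1, 2 or 3 of the ebax-1 null double AEDH.

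Most of the leading arms rose in both backgrounds. In double AEDH the log2 fold changes were 4.15 for mir-788_5p*, 3.41 for mir-42_3p, 3.04 for mir-247_3p, 2.34 for mir-43_3p, 1.99 for mir-797_5p*, 1.71 for mir-230_3p and 1.12 for mir-34_5p*, and each was called by edgeR. The arm ratios of all 10 hairpins called without AEDH had the same direction in double AEDH, where they were set beside the others without a test. They were near the same size for mir-788 (-4.57), mir-42 (3.24), mir-230 (2.06) and mir-34 (-1.36), and -1.55 against -2.10 for mir-797. They were smaller for mir-253 (0.73 against 2.90), mir-52 (-0.22 against -1.27), mir-233 (0.35 against 0.78) and mir-61 (0.35 against 0.58). For mir-38 the value was 1.26 against 1.44, but it leaned on replicate 4 of the ebax-1 null double AEDH. Guide counts per star count of mir-38 were 15.5, 14.8, 20.3 and 90.8 there, against 12.7, 11.7, 10.2 and 7.95 in double AEDH. let-7_3p* was at 2.05 in double AEDH, where its levels were 9.24 ± 1.44 and 38.4 ± 14.1 CPM (SD, n = 4) and all 4 null libraries were higher. mir-244_5p was at 0.62 against 1.19 and was not called in double AEDH (adjusted p = 0.0557 by edgeR). mir-253_3p was at 0.34 there against 2.39 and was not called, with 391 ± 104 CPM in double AEDH and 497 ± 118 CPM in ebax-1 null with double AEDH (SD, n = 4).

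A direct test of the difference between backgrounds passed for 2 of 226 arms (0.885%), and 13 had an unadjusted p under 0.05. Both were in the mir-1829 family. mir-1829c_3p* fell without AEDH, from 189, 159, 195 and 201 CPM to 111, 98.9, 113 and 70.3 CPM. In double AEDH it went from 138, 165, 148 and 136 CPM to 138, 153, 188 and 232 CPM. The difference of the 2 log2 fold changes was 1.20 (adjusted p = 0.0345 by edgeR), and that of mir-1829b_3p* was 1.19 with the same p. Between 0 and 3 arms passed when 1 library was left out, with 1 without null replicate 2. There were none without wild-type replicate 3, null replicate 4, double AEDH replicate 1 or 2, or replicate 3 or 4 of the ebax-1 null double AEDH. For mir-253_3p the difference was -2.05 (95% interval -3.29 to -0.80) and did not pass adjustment (adjusted p = 0.182 by edgeR), so its effect was not shown to differ between backgrounds.

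**Figure D5:**
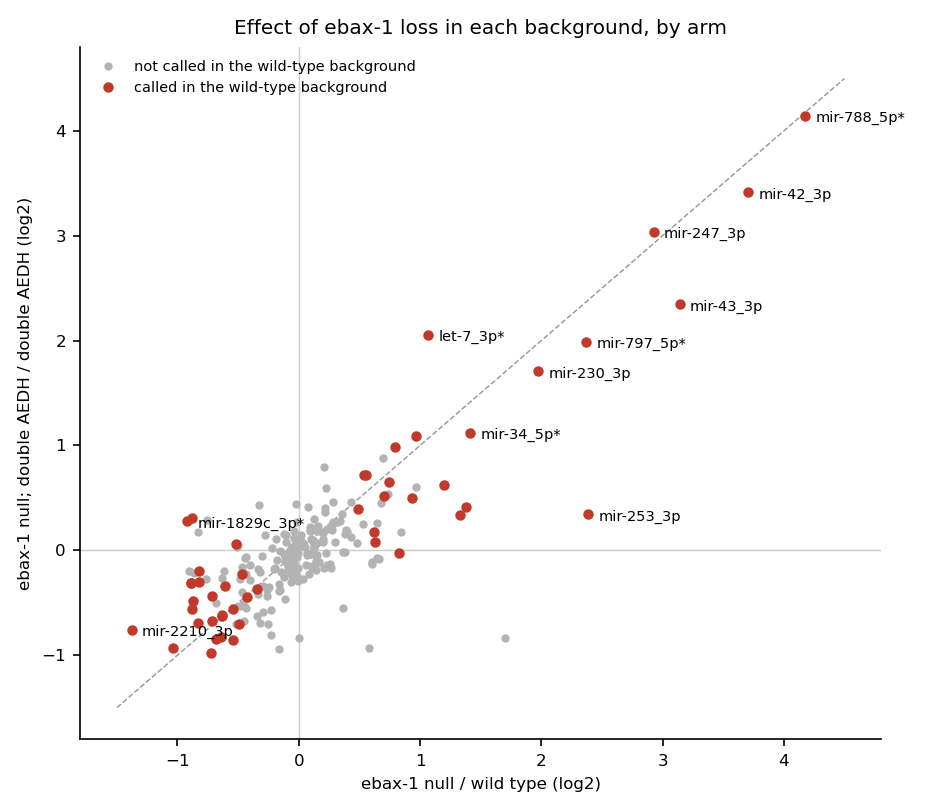
Log2 fold change of each of 226 arms on loss of ebax-1 in the double AEDH background (vertical) against that in the wild-type background (horizontal); red points were called in the wild-type background and the dashed line marks equal change. mir-788_5p*, mir-42_3p, mir-247_3p and mir-230_3p lie near the line, and mir-253_3p lies far to its right.

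Finally, the levels of the called arms were set beside the stages of wild type in the first experiment, where L4 larvae (3 libraries) and young adults (4 libraries) were counted. The L4 larvae had grown for 48 h at 20 °C and the young adults for 44 h at 25 °C, so stage and temperature cannot be told apart in these levels. The embryos came from animals kept at 20 °C. Among the 23 higher arms 18 had a higher level in L4 than in young adults, against 52.2% of all tested arms. Among the 26 lower arms 17 had a lower level in L4, against 108 of all 226 tested arms. Over the 226 arms Spearman's rho between the log2 fold change in the null and that of L4 over young adult was 0.191, and it was 0.204 with embryo over young adult. For mir-788_5p* the stage levels were 709 CPM in L4 and 14.3 CPM in young adults, for mir-230_3p 2155 and 497 CPM, and for mir-247_3p 149 and 8.71 CPM. mir-42_3p was at 4060.0 CPM in embryos, 465 CPM in L4 and 115 CPM in young adults. mir-34_5p* and mir-239a_3p* did not follow this order, since both were lower in L4 (168 and 38.1 CPM) than in young adults (282 and 124 CPM). Whether the null animals differed in age from wild type at harvest was not tested.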

How the data were processed

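Small RNA from whole worms was sequenced after gel selection of reverse transcription products, per the labels' protocols. Tools listed in the submitters' processing notes are HTSeq 0.13.5, Bowtie2 2.4.4, cutadapt 3.4, DESeq2 and SAMtools 1.13. The authors' deposited values are estimated counts per miRNA arm (expected counts, 5.67% of them ending in a fraction), which were rounded to whole numbers. The star marks and the coordinates come from the authors' deposited MirGeneDB annotation of ce11. Where it marks neither arm or both, as for mir-230 and mir-243, the arm of lower mean in wild type of experiment 2 was taken as the star. Of its hairpins, 119 of 119 with a RefSeq gene of that name lay within that gene in WBcel235.

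Arms were tested with edgeR 4.0.16 (R 4.3.3; TMM, minimum count 10, quasi-likelihood) in 1 fit of the 24 young adult libraries of experiment 2, in 6 groups. Spike-ins and reads outside features (21.3% to 26.8%) stayed out. The arm ratio was tested with limma 3.58.1 on log2((guide + 0.5)/(star + 0.5)). Alternatives were other scalings, filters and samples, DESeq2 1.42.0 and a replicate block. On simulated data for the main comparison (226 arms), 16 of 20 arms changed 2-fold and 20 of 20 changed 4-fold were called, with 0 false calls of 186. For the ratio (92 hairpins), 19 of 24 were recovered with 1 false call of 68.

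The members, lists and tests were chosen with earlier results of these data known. Named arms are up to 15 per direction by size among calls of at least 10 CPM, their partners, the lists, mir-243 and, by name, the other calls. miRNA sequences were not used here, so the members of each family come from a written list and were not checked by sequence.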

Additional observations from a re-analysis of the deposited data

Results flagged for a closer look

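In 8 of 196 groups of 4 libraries, 1 library stood apart from the other 3 by Dixon's criterion, which chance alone passes in about 1 of 20 groups. mir-67_5p* was at 7.78 CPM in ebax-1 null replicate 4 against 15.0 to 16.2 CPM in the others, which places that library at the wild-type level. lin-4_3p* was at 2.98 CPM in wild-type replicate 3 against 1.43 to 1.496 CPM. mir-82_3p was at 50520 CPM in wild-type replicate 2 against 63420 to 65890 CPM. mir-60_3p was at 446 CPM in null replicate 1 against 639 to 652 CPM. mir-243_3p was at 485 CPM in null replicate 3 against 274 to 308 CPM. mir-83_3p was at 127 CPM in wild-type replicate 2 against 106 to 107 CPM. mir-250_3p was at 559 CPM in wild-type replicate 1 against 472 to 486 CPM. mir-794_5p was at 22.6 CPM in null replicate 4 against 19.2 to 19.6 CPM.

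The test of the difference in ebax-1 effect between backgrounds passed for mir-1829b_3p* (1.19 on the log2 scale) and mir-1829c_3p* (1.20). These arms had nearly the same values in every library and may share reads. No arm passed when certain single libraries were left out.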

How the results depend on the processing

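The 49 called arms became 107 with spike-in totals and 22 without null replicates 1 and 2 (chosen after seeing the data), and 28 to 50 with 1 library left out. The 36 in double AEDH became 19 to 29 in the same way, and the 2 arms that differed between backgrounds became 1 with spike-in totals and 0 to 3. The cause was not tested. Other settings gave 37 to 60 arms in the main comparison. The replicate numbers did not pair the libraries (r of same-numbered deviations -0.356 to 0.284, over 0.1 in 2 of 4 pairs, with 2 of 4 wild-type libraries closest to their own number). With the replicate block 53 arms and 12 ratios were called, and 44 arms in double AEDH. Ratio counts stayed between 7 and 13. Under spike-in totals the log2 fold changes that changed sign were mir-795_5p 0.0728, mir-1829a_3p* 0.0345, mir-1829a_5p 0.0321, lsy-6_3p 0.0991, mir-1822_3p 0.11, mir-77_3p 0.0942, mir-1817_5p 0.15, mir-82_3p 0.27, mir-250_5p* 0.23, mir-254_3p 0.22, mir-63_3p 0.42, mir-60_3p 0.25, mir-785_3p 0.20, mir-229_3p* 0.30 and mir-63_5p* 0.0787. With hairpins within 1 kb, 11 groups were formed and 5 held a call.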
